A study of Mus musculus with 6 samples.

Results

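Cell cycle genes were followed across the splenocytes of young and aged mice as a set of 40 members, chosen by symbol out of the 31053 genes in the count matrix. All 40 symbols were present and all matched an identifier of the mm10 annotation (GENCODE vM21), on 17 chromosomes. The members were grouped by role into 9 genes of the pre-replication complex and helicase, 7 of the replication fork and nucleotide supply, 7 mitotic entry kinases and cyclins, 4 checkpoint and anaphase genes, 8 genes of the centromere, spindle and cytokinesis, 3 chromatin genes of dividing cells (Mki67, Top2a and Hmgb2), and Tuba1b and Stmn1 of the tubulin cytoskeleton. Single-cell RNA and surface proteins had been counted together by CITE-seq, in which antibodies carry DNA tags that are sequenced beside the RNA, in spleen cells of male mice at 3 months given saline, at 20 months given saline, and at 20 months given PF4, the platelet chemokine also called platelet factor 4, by repeated intravenous injection. Each group was 1 RNA and 1 antibody library made from the pooled cells of 5 mice, so the mice of a group cannot be told apart.

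The barcodes end in 1, 2 or 3, and the labels and methods do not say which ending belongs to which group. The libraries are therefore called library 1, 2 and 3, ages and treatments were not compared, and no p-value was computed. Differences between libraries are given as values with exact 95% intervals (Poisson for counts, Clopper-Pearson for shares), which cover counting error only. After limits of 300 to 5000 genes and at most 10% mitochondrial UMIs (unique molecular identifiers, molecule tags that remove copies made by PCR), 20161 of 29005 barcodes were kept, 4199 in library 1, 7511 in library 2 and 8451 in library 3. The median depth of the kept cells was 3741, 3625 and 3765 UMIs. Library 1 stood apart in its makeup, with 417 of the 492 erythroid-like cells and 133 of the 135 immature neutrophil-like cells. The sums, the shares of cells, the counts of members past a ratio and the concentration of members are given with and without them. So are the other cell cycle, growth and glycolysis lists in cells with 10 or more members. Of the kept cells, 43 barcode sequences occurred in more than 1 library.

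A cell that commits to division first makes the helicase (Mcm2 to Mcm7, loaded by Cdc6 and Cdt1) and the enzymes that supply and copy DNA, and later the cyclins, kinases and spindle proteins of mitosis. In mice the spleen remains a site of red cell production into adult life, so dividing erythroblasts can be found there beside B cells of the germinal centre, activated T cells and dendritic cells. Transcription of the early genes is driven by E2F factors, whereas many late genes carry a short element called the cell cycle genes homology region, through which the MuvB complexes act.

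Promoter stretches are printed here because the replication and mitosis members behaved differently in the counts that follow. RefSeq windows (GRCm38.p6, 250 bases before to 50 after the start) matched 34 of the 40 members. The E2F-like motif TTTNNCGC, with C or G at both N, was searched on both strands and stood in 2.60% of the 27025 genes in the table. It stood in 6 of 7 matched pre-replication and helicase members, in 2 of 7 of the replication fork and nucleotide supply, and in 1 of 16 mitosis members. In the 250 bases before the start of Mcm6, a helicase subunit, it occurred 3 times, the first pair overlapping (matches in capitals, lower case otherwise, 5′ to 3′).

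Mcm6 upstream (chr1:128359706-128359955, minus strand): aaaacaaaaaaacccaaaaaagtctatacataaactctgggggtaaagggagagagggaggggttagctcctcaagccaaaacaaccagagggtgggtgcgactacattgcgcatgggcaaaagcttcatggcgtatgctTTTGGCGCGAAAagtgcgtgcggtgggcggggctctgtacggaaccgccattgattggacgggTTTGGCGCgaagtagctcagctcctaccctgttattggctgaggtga

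The same motif in 5 other replication members is shown as stretches of 30 bases around its first match, which in Mcm3 lies after the start. In Mcm5 a pair of matches overlap.

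Mcm3 (chr1:20820275-20820304, minus strand): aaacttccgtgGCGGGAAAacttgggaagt
Mcm5 (chr8:75109345-75109374, plus strand): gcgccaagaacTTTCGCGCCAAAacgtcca
Mcm7 (chr5:138172030-138172059, minus strand): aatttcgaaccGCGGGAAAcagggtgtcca
Cdc6 (chr11:98908002-98908031, plus strand): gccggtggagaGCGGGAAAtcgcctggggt
Pclaf (chr9:65890307-65890336, plus strand): gcttggagcgcGCGGGAAAgagacccattt

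The homology region core TTTGAA, on either strand, stood in 20.2% of all genes in the table, in 11 of 16 matched mitosis members and in all 3 chromatin genes, but in 1 of 14 replication members (Mcm2). Stretches around its first match are shown for 9 of these, with the motif in capitals. In Plk1, Cenpf and Kif23 the match lies after the start.

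Cdk1 (chr10:69352966-69352995, minus strand): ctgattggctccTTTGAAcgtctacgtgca
Ccnb2 (chr9:70421704-70421733, minus strand): cagggactagaaTTTGAAaataagactgta
Plk1 (chr7:122159453-122159482, plus strand): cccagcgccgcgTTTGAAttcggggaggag
Cdc20 (chr4:118437344-118437373, minus strand): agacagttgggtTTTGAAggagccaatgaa
Ube2c (chr2:164769888-164769917, plus strand): ggagggttgcaaTTCAAAcgcgggcggcgg
Cenpf (chr1:189688067-189688096, minus strand): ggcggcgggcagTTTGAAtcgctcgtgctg
Kif23 (chr9:61946780-61946809, minus strand): ctgattggcctgTTTGAAatgcgccgggcg
Mki67 (chr7:135716478-135716507, minus strand): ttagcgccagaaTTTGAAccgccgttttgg
Top2a (chr11:99024351-99024380, minus strand): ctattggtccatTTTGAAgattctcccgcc

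The shorter CCAAT, searched on both strands, was in 41.1% of all genes, 10 of 14 replication members and 14 of 16 mitosis members. The fixed lists of other replication and mitosis genes gave TTTGAA in 8 of 30 and 32 of 48 matched promoters and TTTNNCGC in 10 of 30 and 6 of 48. These matches describe letters in a window and not binding, and no relation to the libraries was tested.

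The number of members seen per cell separated a small set of cells from the rest. Most kept cells held few members, with 11816 cells at 0 to 2, 5794 at 3 or 4 and 2073 at 5 to 9, after which a long flat tail ran to all 40. The 478 cells with 10 or more members were 2.37% of kept cells (2.17 to 2.59%), and the 132 cells with 30 to 40 members alone held 33.3% of all member UMIs. The 198 cells with 10 to 19 members held 6.59% and the 148 with 20 to 29 members 15.7%.

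**Figure D1:**
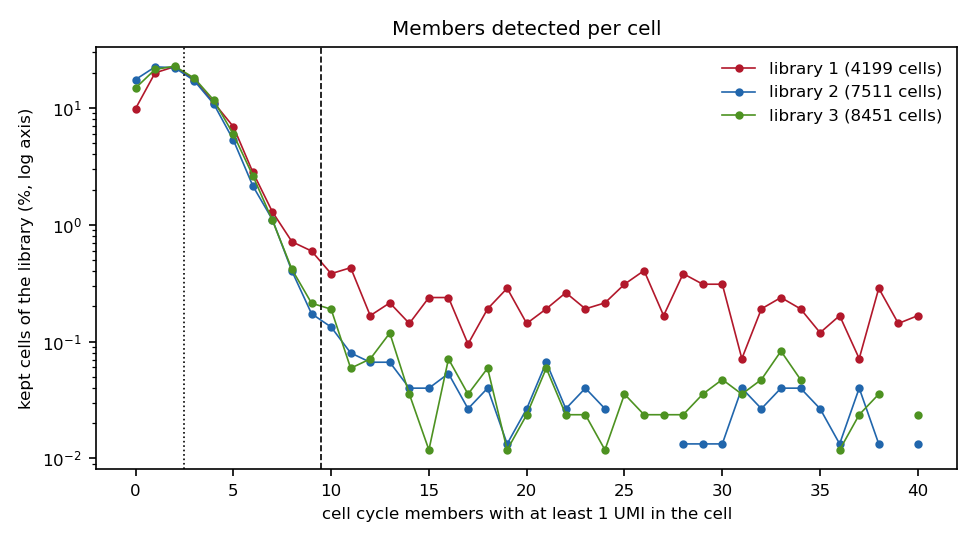
Share of kept cells (percent, log axis) against the number of the 40 members with at least 1 UMI, for library 1 (red), 2 (blue) and 3 (green); the dotted line marks 3 members and the dashed line 10. The curves lie close together between 2 and 7 members, and from 10 members on the tail of library 1 lies above the others, with 6.91% of its cells against 1.04% and 1.30%.

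Detection of 3 or more members, the limit by which cycling cells were set out to be counted, was met by 47.7% of the cells in library 1 (46.2 to 49.2%), 38.1% in library 2 and 41.2% in library 3. That limit followed depth. In 4 equal groups of cells ordered by UMIs it was met by 8.51%, 33.1%, 49.9% and 74.0%, and after each cell was thinned to 1000 UMIs by 11.6%, 3.50% and 4.20% of cells in library 1, 2 and 3. Hmgb2, a chromatin protein, and Tuba1b, an alpha-tubulin, were detected in 47.7% and 38.8% of all kept cells, so a few widely found genes could meet it. A limit of 10 members, chosen after these values were seen, was met by 290 cells of library 1 (6.91%, 6.16 to 7.72%), 78 of library 2 (1.04%, 0.822 to 1.29%) and 110 of library 3 (1.30%, 1.07 to 1.57%). These cells were deep as well, with a median of 11001 UMIs, and met that limit in 0.793%, 0.476%, 0.774% and 7.44% of these depth groups. Scrublet marked 10 of them as doublets, and 2 had a barcode sequence found in another library.

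Summed over the kept cells, the members made up 3452 CPM, UMIs of the members scaled to a common total of RNA UMIs, in library 1 (3426 to 3478), 1039 in library 2 (1028 to 1050) and 1242 in library 3 (1231 to 1254). Library 1 was the highest and library 2 the lowest, with intervals apart. Without the 3 broadly detected genes Hmgb2, Tuba1b and Stmn1 the sums were 2334, 545 and 658 CPM. Of the 40 members, 39 were highest in library 1 with intervals apart from both other libraries, the exception being Cdt1, and 36 were higher in library 3 than in library 2. At a ratio of at least 1.5, 36 members were higher in library 1 than in library 2, beside 12.7% of all genes with at least 50 UMIs, and none was lower, beside 7.41%. By the same ratio, 34 were higher in library 1 than in library 3, beside 13.7%, and none lower, beside 12.9%. Between library 3 and library 2, 8 members passed that ratio upward, beside 3.63% of all genes, and none downward, beside 3.97%. The median member differed by 2.12 on the log2 scale between library 1 and 2 and by 0.31 between library 3 and 2, where the medians of all genes were -0.15 and 0.04. The ratios of library 1 to library 2 and to library 3 share library 1. Fewer dividing cells and less RNA per cell cannot be told apart in such sums.

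Much of the excess of library 1 lay in 2 classes. Without the erythroid-like and immature neutrophil-like cells, the sums were 1428, 1025 and 1236 CPM, and cells with 10 or more members made up 2.14%, 0.962% and 1.26%. The members at least 1.5-fold higher in library 1 were then 23 against library 2 (9.24% of all genes) and 8 against library 3 (10.1% of all genes), and none was lower (2.61% and 5.67% of all genes). Between library 3 and library 2, 8 were again higher (3.54% of all genes) and none lower (3.86%).

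Members of the pre-replication complex and helicase differed least between libraries. Mcm6, a helicase subunit, stood at 59.8 CPM in library 1, 38.5 in library 2 and 39.0 in library 3. Mcm4, of the same ring, stood at 58.2, 38.8 and 37.8 CPM, and Mcm7 at 54.2, 34.2 and 36.2 CPM. For each of these subunits the interval of library 1 was above the others, and libraries 2 and 3 overlapped. The ratio of library 1 to library 2 ran over the 9 members from 0.990 for Cdt1 to 10.7 for Cdc6, with a median of 1.58. Cdt1, which helps to load the helicase, stood at 24.1, 24.3 and 27.9 CPM, the only member not highest in library 1. Cdc6, its partner in loading, stood at 20.3, 1.89 and 2.27 CPM.

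Genes of the replication fork and nucleotide supply ranged more widely. Pcna, the sliding clamp of the polymerases, stood at 76.7, 55.4 and 55.3 CPM in library 1, 2 and 3. Rrm1, the large subunit of ribonucleotide reductase, stood at 74.1, 31.4 and 33.8 CPM. Its partner subunit Rrm2, which is made anew for replication, stood at 85.3, 5.08 and 9.64 CPM. The subunits of 1 enzyme thus differed 2.36-fold and 16.8-fold between library 1 and 2. Pclaf, a clamp-binding protein, stood at 69.5, 15.9 and 30.4 CPM, the largest ratio of library 3 to library 2 among the members at 1.92. Tyms, Tk1 and Uhrf1 lay between 5.08 and 8.82 CPM in libraries 2 and 3 and between 21.9 and 28.0 in library 1.

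The mitotic entry kinases and cyclins were 4.93 to 11.9 times higher in library 1 than in library 2. Ccna2 (cyclin A) stood at 49.4, 4.15 and 6.70 CPM, Ccnb2 (a B-type cyclin) at 35.9, 4.59 and 5.88 CPM, and Cdk1, the kinase they activate, at 35.0, 3.69 and 4.62 CPM. Libraries 2 and 3 overlapped in their intervals for Ccnb2 and Cdk1 and not for Ccna2. Ccnb1, Plk1, Aurka and Aurkb stood between 16.2 and 24.8 CPM in library 1 and between 2.29 and 5.13 in the others.

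Among the checkpoint and anaphase genes, Ube2c, the ubiquitin-conjugating enzyme of the anaphase-promoting complex, stood at 141 CPM in library 1, 8.30 in library 2 and 12.5 in library 3. Bub1b, a spindle checkpoint kinase, stood at 16.2, 4.49 and 6.02 CPM, and Cdc20, the activator of that complex, at 15.6, 4.15 and 5.10 CPM. The ratio of library 1 to library 2 was thus 17.0 for Ube2c, the highest of the 40, and 3.61 for Bub1b. Bub1 stood at 11.1, 1.49 and 2.27 CPM.

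Of the centromere, spindle and cytokinesis genes, Cenpa, the histone variant that marks centromeres, stood at 78.6, 34.7 and 38.2 CPM in library 1, 2 and 3. Cenpf, a kinetochore protein, stood at 109, 8.52 and 13.6 CPM. Birc5, survivin, stood at 90.9, 8.27 and 12.7 CPM. Cenpa was thus the least different of the 8 members between library 1 and 2, at 2.27-fold, and Cenpf the most, at 12.8-fold. Nusap1, Cenpe, Kif11, Tpx2 and Kif23 stood between 35.7 and 77.0 CPM in library 1 and between 5.70 and 15.9 in the others.

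Mki67, the nuclear antigen used to stain dividing cells, stood at 513 CPM in library 1, 41.4 in library 2 and 56.7 in library 3. Top2a, the topoisomerase that untangles sister chromatids, stood at 169, 28.1 and 43.3 CPM, and Hmgb2 at 757, 279 and 335 CPM. Stmn1, a microtubule destabiliser, stood at 132, 49.4 and 62.7 CPM and Tuba1b at 228, 165 and 187 CPM. The intervals of all 3 libraries were apart for each of these 5 genes.

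The widest ratios narrowed once the erythroid-like and immature neutrophil-like cells were left out. Without these cells Ube2c stood at 22.4, 8.04 and 10.9 CPM in library 1, 2 and 3, Rrm2 at 11.5, 5.02 and 9.05 CPM, Mki67 at 65.8, 39.9 and 54.6 CPM and Cenpf at 19.8, 8.26 and 13.4 CPM. Library 1 still had the highest value for these 4 genes, and the 7 ratios to library 2 that had been over 10 lay between 1.65 (Mki67) and 2.78 (Ube2c). Mcm6 then stood at 43.6, 38.2 and 38.9 CPM, and Pcna at 52.8, 55.3 and 55.4 CPM was no longer highest in library 1.

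**Figure D2:**
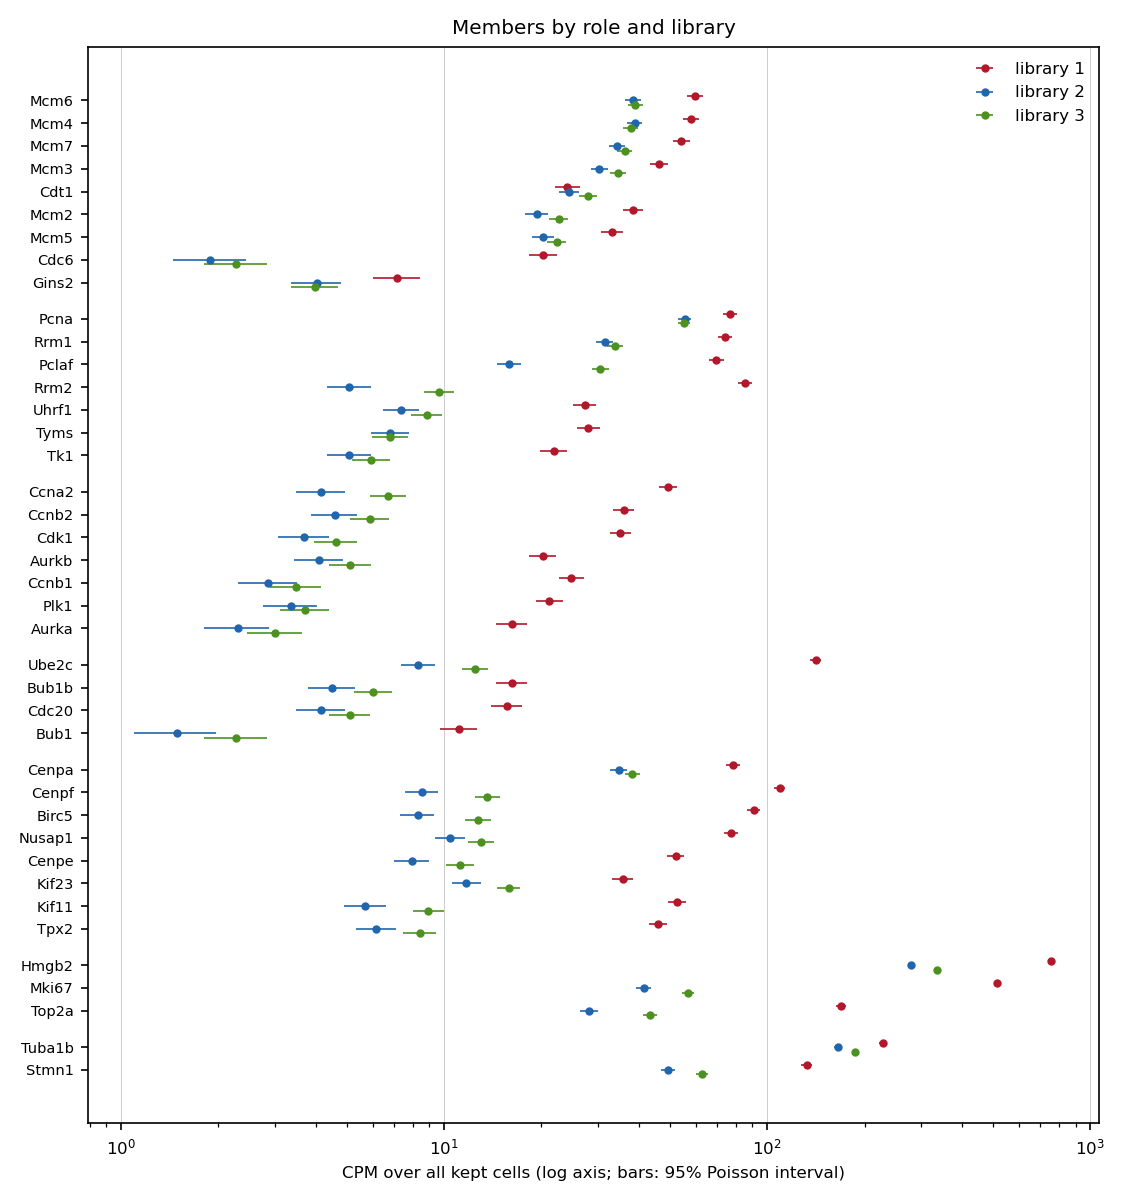
CPM of each member over all kept cells (log axis), grouped by role, in library 1 (red), 2 (blue) and 3 (green), with exact 95% Poisson intervals. Library 1 lies to the right for all members but Cdt1, by little for the Mcm genes and Pcna and, against library 2, by more than 10-fold for Ube2c, Rrm2, Cenpf, Mki67, Ccna2, Birc5 and Cdc6.

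A split by role also appeared when each member was followed into cells by the number of other members they held, a number that leaves the gene itself out. Of the 478 cells with 10 or more members 290 were in library 1, so the pooled shares are not separate from the ratios between libraries. Pooled over the libraries, for 17 members at least 80% of the UMIs lay in cells with 10 or more others, and for 14 members under 50% did. The highest were Bub1 (91.7%), Ccna2 (91.7%), Pclaf (91.4%), Birc5 (91.1%) and Cenpf (91.0%). The lowest were Cdt1 (15.7%), Pcna (25.9%), Tuba1b (26.4%), Mcm4 (28.2%) and Mcm6 (29.6%). By role, the pooled median was 32.5% for the pre-replication complex and helicase, 65.9% for the replication fork and nucleotide supply, 86.5% for the mitotic entry genes and 85.0% for the centromere, spindle and cytokinesis genes. Within the first of these, Cdc6 was the exception at 87.8%, with a UMI in 32.6% of cells that held 10 or more others and in 0.325% of the remaining cells. Pcna was detected in 61.1% and 17.0% of these cells, and Mki67 in 81.3% and 4.56%.

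The level of this concentration differed between libraries, while the order of these roles from the first to the mitotic ones held in each. The members at or above 80% were 26 in library 1, 8 in library 2 and 7 in library 3, and those under 50% were 1, 18 and 17. The median was 62.6%, 17.6% and 19.3% for the pre-replication complex and helicase in library 1, 2 and 3 and 84.0%, 38.6% and 47.3% for the replication fork and nucleotide supply. It was 91.7%, 75.6% and 76.7% for the mitotic entry genes and 88.6%, 81.0% and 76.3% for the centromere, spindle and cytokinesis genes. Without the erythroid-like and immature neutrophil-like cells the pooled medians of these 4 roles were 19.3%, 44.0%, 72.2% and 77.7%, with 7 members at or above 80% and 17 under 50%.

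**Figure D3:**
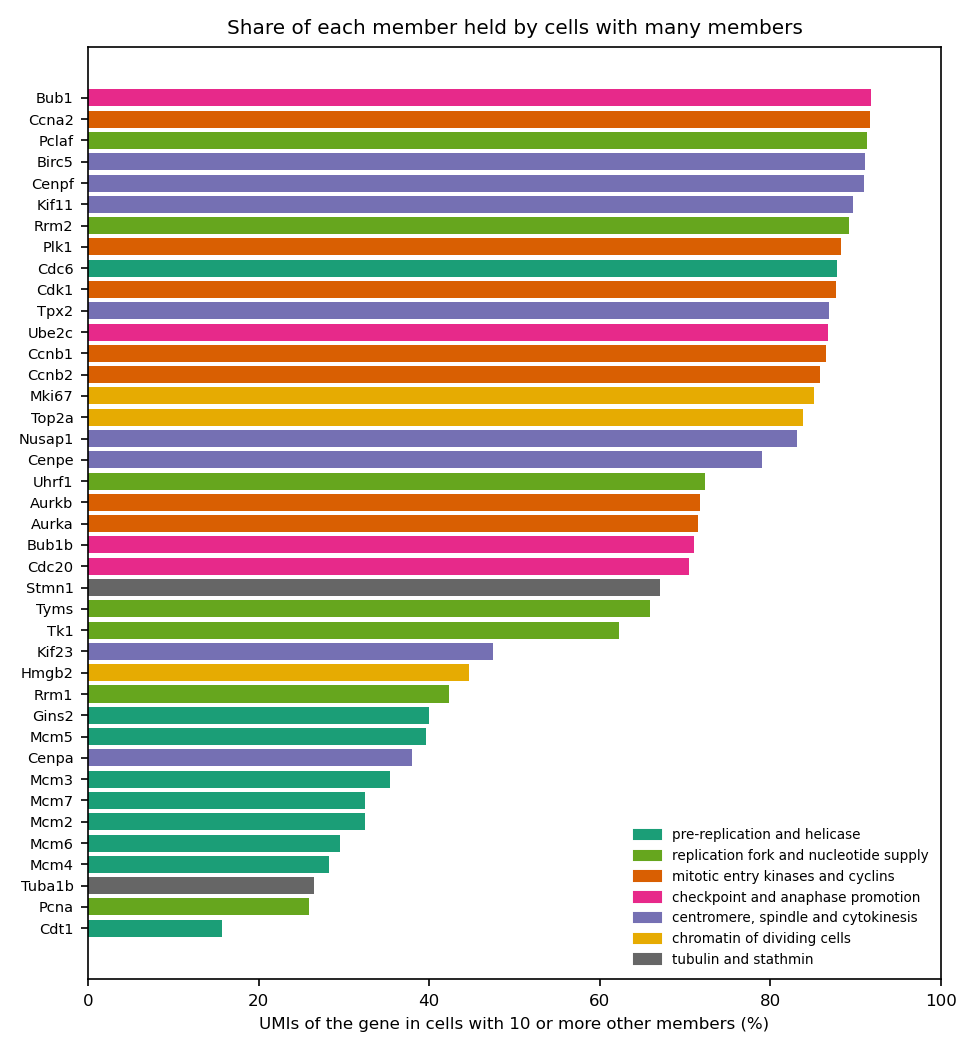
Percent of each member's UMIs found in cells with 10 or more other members, pooled over all kept cells, coloured by role. In this pooled view mitosis genes crowd above 70% and the Mcm genes between 28.2% and 39.6%, with Cdc6 at 87.8%, Cenpa at 38.0% and Kif23 at 47.5% apart from their roles. By library the Mcm genes reach 67.1% in library 1 and 23.2% in library 2, and Aurka is at 41.9% and Aurkb at 47.7% in library 2.

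Cenpa and Kif23 were the mitosis members under 50%, at 38.0% and 47.5%. Kif23, a kinesin of cytokinesis, was highest in neutrophil-like cells at 201 CPM (179 to 226), above the 115 CPM of erythroid-like cells, and stood there at 156, 250 and 220 CPM in library 1, 2 and 3. In those neutrophil-like cells the 4 checkpoint and anaphase members summed to 11.2 CPM and the 7 mitotic entry members to 12.6 CPM. Kif23 was in 33.9% of the neutrophil-like cells, while few of these cells held the other mitosis members. Hmgb2 behaved alike, with 1330 CPM in neutrophil-like cells and a UMI in 79.7% of them, at 1339, 1184 and 1413 CPM by library.

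The classes were named from clusters built without cell cycle genes, so that dividing cells fell with their lineage. Of the 40 members, 37 were highest in erythroid-like cells. The others were Kif23, Hmgb2 (immature neutrophil-like, 2544 CPM) and Cdt1, which was highest in cluster 21, an unnamed group with a median of 583 UMIs where it rested on 9 UMIs. Erythroid-like cells summed to 12333 CPM (12215 to 12452) and held 28.2% of all member UMIs with 2.44% of the cells. Immature neutrophil-like cells followed at 4874 CPM, then NK-like cells at 2204, while B-like cells stood at 1117, T-like cells at 1270 and plasma-like cells at 772 CPM.

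The erythroid-like cells fell into 2 clusters with different levels. Cluster 14, led by Slc4a1 and Rhd of the red cell membrane, stood at 14829 CPM, and 202 of its 404 cells held 10 or more members. Cluster 26, led by the haemoglobin genes, stood at 627 CPM with 1 such cell of 88. By library, cluster 14 had 384, 9 and 11 cells at 15338, 6155 and 6364 CPM, so its numbers and its level per UMI both were higher in library 1.

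In erythroid-like cells Mki67 stood at 3056 CPM in library 1, 303 in library 2 and 298 in library 3, resting on 8832, 48 and 95 UMIs. Ube2c stood at 808, 63.2 and 185 CPM. The mix of the clusters differed as well, with 384 of 417 erythroid-like cells in cluster 14 in library 1, 9 of 23 in library 2 and 11 of 52 in library 3. Within cluster 14 alone Mki67 stood at 3363 CPM (3293 to 3434), 607 (447 to 804) and 1126 (901 to 1391). Libraries 2 and 3 had 23 and 52 erythroid-like cells, of which 5 and 4 held 10 or more members, against 194 of 417 in library 1. Without library 1, 3 or more members were found in 48.0% of the erythroid-like cells in place of 77.8%.

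**Figure D4:**
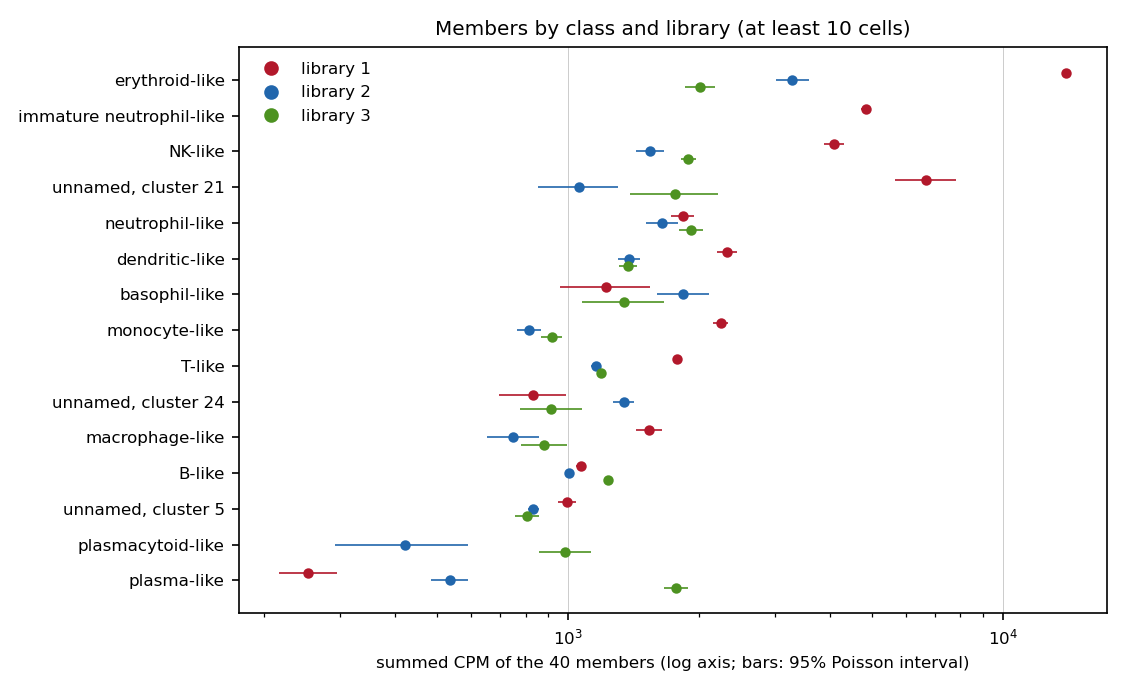
Summed CPM of the 40 members per class (log axis, classes ordered by the pooled level) in library 1 (red), 2 (blue) and 3 (green), with exact 95% Poisson intervals, for classes with at least 10 cells in the library. Library 1 is highest for erythroid-like, NK-like, dendritic-like, monocyte-like, T-like and macrophage-like cells, and library 3 for B-like and plasma-like cells.

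Outside the erythroid cells the order of the libraries changed with the class. In B-like cells the members summed to 1071 CPM in library 1 (1046 to 1096), 1004 in library 2 (988 to 1020) and 1238 in library 3 (1221 to 1255), so library 3 was highest. In T-like cells they summed to 1788, 1159 and 1191 CPM, with library 1 highest. In NK-like cells the sums were 4095, 1545 and 1895 CPM. In dendritic-like cells they were 2328, 1383 and 1375 CPM, where libraries 2 and 3 overlapped. Monocyte-like cells stood at 2245, 815 and 918 CPM, with 10 of the 11 cells that held 10 or more members in library 1. All 10 such macrophage-like cells and 18 of 19 such immature neutrophil-like cells were in library 1 as well. Plasma-like cells stood at 253, 536 and 1777 CPM, the last resting on 3 of 38 cells with 10 or more members, beside 1 of 47 and 1 of 60. Neutrophil-like cells stood at 1840, 1651 and 1920 CPM, most of it Hmgb2.

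The share of cells with 10 or more members was 41.3% in erythroid-like cells (36.9 to 45.8%), 14.1% in immature neutrophil-like cells and 8.02% in dendritic-like cells (5.48 to 11.3%), and 1.04% in B-like, 1.01% in T-like and 2.02% in NK-like cells. Dendritic-like cells had 13 of 78 such cells in library 1 (16.7%), 9 of 129 in library 2 (6.98%) and 8 of 167 in library 3 (4.79%), with overlapping intervals. After thinning to 1000 UMIs, 3 or more members were found in 51.9% of erythroid-like, 10.2% of dendritic-like, 4.34% of T-like and 3.81% of B-like cells.

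RNA of erythroid cells was looked for in the cells with 10 or more members of other classes, by the summed level of 7 erythroid marker genes other than globins, among them Alas2, Slc4a1 and Klf1. In erythroid-like cells with 10 or more members these 7 genes stood at 10345 CPM. In the B-like cells with 10 or more members they stood at 9.05 CPM beside 30.9 in the other B-like cells, in monocyte-like cells at 5.21 beside 17.8, and in macrophage-like cells at 81.4 beside 321. The values in cells with many members rested on 14 UMIs in B-like, 1 in monocyte-like and 4 in macrophage-like cells. B-like and macrophage-like cells thus held less of the list where members were many, with intervals apart. In monocyte-like cells the intervals overlapped, and 1 UMI cannot show a difference. By library, the intervals of B-like cells were apart in library 1 and library 3 and overlapped in library 2. T-like cells stood at 14.3 beside 14.4 CPM when pooled. By library the cells with many members held 2 UMIs of the list in library 1, where the others stood at 53.5 CPM. Those with many members stood at 0 beside 8.78 in library 2 and at 21.8 (7 UMIs) beside 7.09 in library 3. NK-like cells went the other way, at 444 CPM (344 to 564) in the 10 cells with many members beside 171 in the others, although 5 of the 7 genes were at 0 in these 10 cells. The part of erythroid RNA in the NK-like and T-like results was not tested. In the B-like cells with under 10 members the list stood at 77.8, 23.7 and 18.1 CPM in library 1, 2 and 3.

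Among B-like cells, germinal centre genes were concentrated in the 114 cells with 10 or more members. A list of 10 such genes stood there at 863 CPM (818 to 911) and in the other 10806 B-like cells at 83.9 CPM. By library it stood at 922, 842 and 861 CPM in the 17, 35 and 62 cells with many members, with overlapping intervals, and at 78.3, 80.6 and 89.2 CPM in the others. Mybl1, a transcription factor of the Myb family, stood at 124 CPM beside 2.81, and S1pr2, which keeps cells in the follicle, at 61.4 beside 1.80. Gcsam was found at 62.7 beside 0.519 CPM. Bcl6, the master regulator of the germinal centre, differed little, at 67.9 beside 45.8 CPM. Ighd, Fcer2a and Cr2 of mature follicular and marginal zone B cells went the other way, at 320 beside 1419, 124 beside 566 and 246 beside 576 CPM. Antibody for CD38, which germinal centre B cells of mice lose, was lower in the B-like cells with many members in every library, at 0.562, 0.661 and 0.647 times its share of antibody counts in the others.

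The cells behind this lay mostly in cluster 0, with 67 of the 114. Egr3, Pxdc1 and Cd83 led this cluster, and Mybl1, Cr2, Tnfrsf13c and Rgs13 were also among its leading genes. The germinal centre list stood at 1334 CPM in those 67 cells and at 96.9 CPM in the other 2800 cells of the cluster. Those 67 cells held 1244 of the 1335 UMIs of the list in the 114 cells, so the rest of the 114 carried little of it. The summed members of cluster 0 stood at 1590, 1285 and 1924 CPM in library 1, 2 and 3, with 9, 19 and 39 cells of 10 or more members. Cluster 8, a B-like cluster, had 13 of its 15 such cells in library 3, where it stood at 1210 CPM beside 688 and 513. Within B-like cells, 8 of 38 members were at least 1.5-fold higher in library 1 than in library 2, beside 3.86% of all genes, and none lower, beside 3.35%. In the same cells 14 members were at least 1.5-fold higher in library 3 than in library 2, beside 2.44% of all genes tested, among them Pclaf (2.04), Rrm2 (2.01) and Bub1 (1.88). None was 1.5-fold lower, beside 2.57%. Against library 1, 7 members were higher in library 3 by that ratio, beside 6.03% of all genes, and none was lower, beside 5.11%.

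In T-like cells the mitosis members led the difference. Library 1 was at least 1.5-fold higher than library 2 for 24 of 37 members tested, beside 4.74% of all genes, and higher than library 3 for 25 of 37, beside 9.82%. None was lower in library 1, beside 4.14% and 6.56% of all genes. Other values moved with library 1 in this class. The erythroid list stood at 53.5, 8.78 and 7.09 CPM in the T-like cells with under 10 members of library 1, 2 and 3, and cluster 15 held 244 of 761, 133 of 1457 and 20 of 2351 T-like cells. Without cluster 15, 16 of 28 members tested were higher in library 1 than in library 2, where 3.53% of all genes were, and 20 of 33 higher than in library 3, where 8.04% were. The part of the erythroid RNA in this difference was not tested. Between library 3 and library 2, 1 of 38 was higher (Ccnb2, 1.65% of all genes) and 1 lower (Tyms, 5.14%). Ube2c differed 4.75-fold, Aurka 4.59-fold and Cenpf 4.59-fold between library 1 and 2, whereas Pcna and Mcm2 to Mcm7 did not pass the ratio. The 46 T-like cells with 10 or more members were 11 in library 1, 11 in library 2 and 24 in library 3. Their share of CD44 antibody, a marker of activated T cells, was 1.75, 2.38 and 2.28 times that of the other T-like cells in library 1, 2 and 3. The CD44 share was also higher in B-like cells with 10 or more members, at 1.39, 1.83 and 1.27 times that of the other B-like cells. Cluster 6 stood at 2469, 1497 and 2499 CPM. Its leading genes held Ikzf2, Foxp3 and Ctla4 of regulatory T cells and also Izumo1r, Sostdc1, Tnfrsf4 and Maf. The part of regulatory T cells in its level was not measured. Cluster 15, led by Gzmk and Ccl5, stood at 2229 CPM in library 1 (244 cells), 3591 in library 2 (133 cells) and 12707 in library 3 (20 cells, of which 6 held 10 or more members). Cluster 18, positive for CD4 antibody in 63.3% of cells, held 7 of the 46 cells. Without it, 3 or more members were found in 52.3% of T-like cells in place of 53.3%.

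The balance of replication and mitosis members varied between the cells with 10 or more members, which the members themselves had selected. Over these 478 cells with 10 or more members, log expression of pairs of genes correlated with a median r of 0.36 within the 16 replication members, 0.44 within the 19 mitosis members and -0.05 between them, where the points are cells and share their library and depth. Replication members made over 80% of the replication and mitosis UMIs in 105 cells, under 20% in 137 and between these in 236. Without the erythroid-like and immature neutrophil-like cells, 256 cells remained, the medians of r were 0.33, 0.54 and -0.05, and the counts of cells 101, 51 and 104. They made 42.5% of these UMIs in all, 59.1% in B-like cells (58.0 to 60.2%), 54.6% in dendritic-like cells, 38.1% in erythroid-like cells (37.4 to 38.7%) and 35.8% in T-like cells. Counted as cells, replication exceeded mitosis in 79 of 114 B-like cells, 19 of 30 dendritic-like cells, 21 of 46 T-like cells and 68 of 203 erythroid-like cells. The share of replication UMIs in B-like cells was 56.7%, 54.8% and 62.1% in library 1, 2 and 3, and in T-like cells 24.7% in library 1, 40.5% in library 2 and within 37.9 to 42.0% in library 3. In dendritic-like cells it was 64.7%, 64.7% and 33.0%, which rests on 8 cells in library 3.

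**Figure D5:**
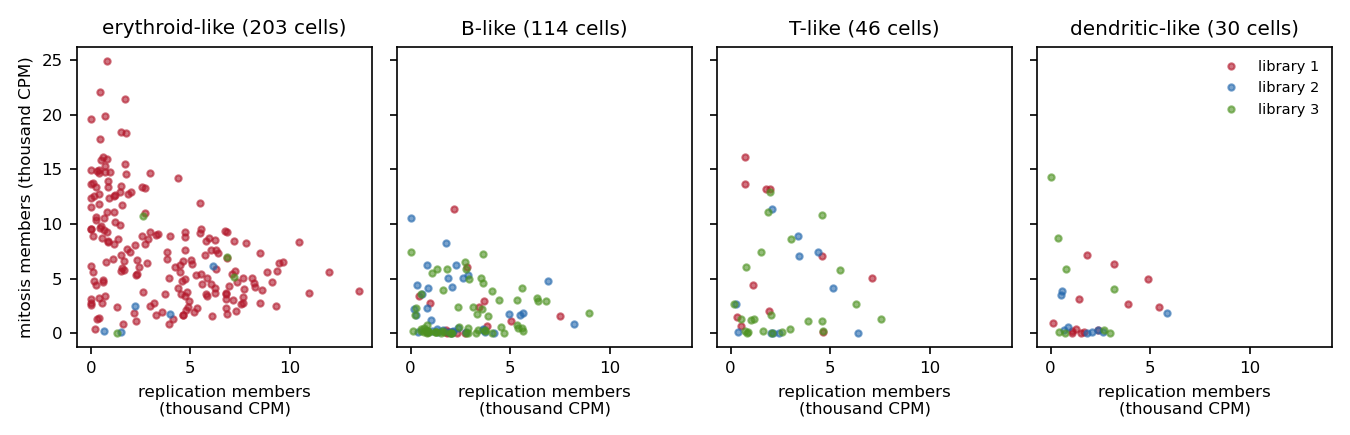
Each point is a cell with 10 or more members, placed by its summed replication members (x) and mitosis members (y) in CPM (axis labels in 1000s), in library 1 (red), 2 (blue) and 3 (green), for 4 classes. Of the B-like cells 79 of 114 lie on the replication side, many near 0 on the y axis, and of the erythroid-like cells 135 of 203 lie on the mitosis side.

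Other cell cycle genes moved with the members in these cells. Each was compared as CPM in cells with 10 or more members against the other cells of the same class and library, weighted to the same mix of classes. By at least 1.5-fold, all 42 other replication genes and 59 of 60 other mitosis genes were higher, beside 29.5% of 8206 genes outside the members, while 10.7% of those genes were lower. The cells were chosen by correlated genes and were deeper, and these counts are given as a description. Dut, which removes dUTP, was 9.69-fold higher, Atad2 6.77-fold and the histone mRNA binding protein Slbp 6.26-fold. The histone variant H2afz was 4.99-fold and the tubulin Tubb5 5.25-fold higher. The mitosis gene that was lower was Pttg1, securin, at 0.548 times, with ratios of 0.385, 0.940 and 0.930 in library 1, 2 and 3. Without the erythroid-like and immature neutrophil-like cells, 39 of 40 other replication genes and 57 of 58 other mitosis genes with enough counts were higher, beside 15.8% of 7103 genes, and Pttg1 stood at 0.856 times. At the limit of 3 members, 26 of the 42 replication genes and 55 of the 60 mitosis genes were higher, beside 4.88% of 12060 genes outside the members.

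Among the regulators, the E-type cyclins stood out, with Ccne2 at 95.5 beside 1.12 CPM and Ccne1 at 89.8 beside 6.39 CPM. The D-type cyclins, which answer to growth signals, differed between libraries, Ccnd3 with ratios of 2.35, 1.07 and 0.872 in library 1, 2 and 3 and Ccnd2 with 0.648 in library 1, 1.57 in library 2 and a value between these in library 3. Among the E2F and pocket protein genes, E2f8 was 26.5-fold and Rbl1 4.91-fold higher, both in every library, and E2f2 1.26-fold. Rb1, the retinoblastoma protein, had ratios of 3.39, 0.727 and 0.845. Foxm1 (15.8-fold) and E2f1 (11.1-fold), named after their values were seen, were higher in every library. Of the inhibitors of cyclin-dependent kinases, Cdkn1b (p27), which holds resting cells out of the cycle, was lower at 102 beside 262 CPM, with ratios of 0.327, 0.551 and 0.532 in library 1, 2 and 3. Cdkn2c (p18) was higher at 57.8 beside 9.94 CPM, with ratios of 6.40, 4.22 and 4.34. Cdkn2d was higher at 168 beside 54.0 CPM, though its ratios were 4.44, 1.31 and 1.21.

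Of 22 growth and biosynthesis genes, 19 were at least 1.5-fold higher, 16 of them in every library, led in counts by Npm1 (1.97-fold) and Ncl (2.18-fold) of the nucleolus. Ran, the nuclear transport GTPase, was 4.59-fold higher. Of 11 glycolysis genes with enough counts, 6 were higher, Gapdh by 2.40-fold and Ldha by 1.86-fold. The median ratio of the growth list was 2.19 and of the glycolysis list 1.71, beside 1.16 for all genes outside the members. Without the erythroid-like and immature neutrophil-like cells, 17 of 21 growth genes and 6 of 11 glycolysis genes were higher. Neither list stood out at the limit of 3 members, where 2 of 22 growth genes, none of them in every library, and 0 of 12 glycolysis genes passed the ratio.

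At the limit of 3 members, by the ratio that was smallest over the libraries, the 10 leading genes outside the members and the other fixed lists were Sapcd2, Stil, Cdkn3, BC030867, Hist1h3b, Kif14, Shcbp1, Prr11, Ska1 and Hist1h3c. Hist1h3b and Hist1h3c belong to the replication histone genes, of which 50 of 56 with enough counts were higher at this limit. None of the 10 was a member, but the cells were chosen by correlated genes and were deeper, so these ratios are given as a description. Of the 12060 genes 4.88% were at least 1.5-fold higher and 2.21% lower. Sapcd2 had 78 UMIs and BC030867 50 in cells with 3 or more members and none in the others. Stil, a centriole assembly factor, had 296 UMIs in cells with 3 or more members and 3 in the others. Kif14, a kinesin of cytokinesis, had 401 and 3. Cdkn3, a phosphatase of Cdk1, had 631 and 18, and the replication-dependent histone gene Hist1h3b 1438 and 36.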

How the data were processed

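CITE-seq of spleen cells was deposited by the authors as 1 matrix of whole-number counts of UMIs per feature and barcode, genes and antibodies together, with no normalization found. Cell Ranger 5.0.1 stands in the header of the matrix, and Seurat and mm10 in the notes of the submitters. No source read here says if libraries were subsampled on joining. Kept cells summed to 20032690, 32270524 and 35697547 RNA UMIs in library 1, 2 and 3.

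The members and lists were chosen with earlier results of these data known. Clusters were built with Louvain (igraph 0.11.9, resolution 0.8, 20 components of 2000 variable genes, 286 genes of the cell cycle and histones left out) and named from fixed markers, so a difference from the study's own clusters may come from rebuilt names. Clusters 5, 21 and 24 stayed unnamed. Scrublet (scanpy 1.11.5) marked 2.50% of cells and was used as an alternative. Antibody gates came from Gaussian mixtures of ln counts.

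Counts were summed per library and class. Ratios between libraries used genes of at least 50 UMIs with 0.5 counts added, and the procedure was tested on simulated data. The genes named are all members by role, the 3 most counted of each role in full, the most counted of the other lists, and the 10 genes outside the members and the other fixed lists (replication histone genes were not a fixed list) with the largest smallest ratio over libraries. Ighd, Fcer2a, Cr2, Foxm1, E2f1 and the limit of 10 members were chosen after values were seen. Coordinates are 1-based. With 1 library per group, p-values were not computed. Some markers and antibodies that entered the lists and gates are not reported here.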

Additional observations from a re-analysis of the deposited data

Results flagged for a closer look

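Cells with many members were also found among the barcodes that the limits removed. Of the 79 barcodes with more than 5000 genes, 72 (91.1%, 82.6 to 96.4%) held 10 or more members, 41 of 43 in library 1, 14 of 16 in library 2 and 17 of 20 in library 3, and their summed members stood at 12624 CPM. Their median was 36718 UMIs, against 3707 in the kept cells, and the part of doublets in them was not tested. With them, the summed CPM was 4322, 1300 and 1429 in library 1, 2 and 3.

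Of the 7731 barcodes of 300 to 5000 genes with over 10% mitochondrial UMIs, 114 (1.47%, 1.22 to 1.77%) held 10 or more members, against 2.37% of the kept cells. By library these were 68 of 1602 (4.24%), 12 of 2914 (0.412%) and 34 of 3215 (1.06%), the same order as in the kept cells. Their median was 1049 UMIs. Both results were drawn from barcodes outside the comparisons above.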

How the results depend on the processing

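Library 1 stayed highest, library 3 next and library 2 lowest in the share of cells with 3 or more members, the share with 10 or more and the summed CPM under every setting run, while the sizes moved. Of 102 alternative values with an interval, 38 lay within the interval of the reported value, and 5 of 6 counts of members stayed within 1.5 times. With 5 or more members the shares were 19.2%, 10.2% and 11.6% in library 1, 2 and 3, and 56.9%, 20.0%, 15.4% and 7.16% in erythroid-like, plasma-like, T-like and B-like cells. With 10 or more members the class shares were 41.3%, 3.45%, 1.01% and 1.04%. Thinned to 1000 UMIs, the shares with 3 or more were 11.6%, 3.50% and 4.20% by library and 51.9%, 3.50%, 4.34% and 3.81% by class. Without Tuba1b, Stmn1 and Hmgb2 they were 27.0%, 16.4% and 17.9% by library and 71.1%, 31.0%, 23.2% and 13.4% by class, the sums 2334, 545 and 658 CPM, and the shares with 10 or more 0.812% and 1.01% in library 2 and 3. With no mitochondrial limit the shares with 3 or more were 38.0%, 28.2% and 31.6% and the sums 3403, 1001 and 1219 CPM. At a limit of 5% they were 52.9%, 46.0% and 51.5% and 3746, 1087 and 1294 CPM, with 7.97% and 1.31% at 10 or more members in library 1 and 2. Without erythroid-like and immature neutrophil-like cells, library 1 had 44.1% and 2.14% of cells at 3 and 10 members, with sums of 1428 and 1025 CPM in library 1 and 2. Without the upper gene limit, added after seeing the data, the sums were 4322, 1300 and 1429 CPM and the share with 10 or more in library 1 was 7.80%. Means over cells of each cell's CPM were 2459, 834 and 958. Without Scrublet-marked cells the sums of library 2 and 3 were 1057 and 1265 CPM. Leaving out 1 library at a time, the share with 3 or more members ranged from 48.0% to 81.8% in erythroid-like cells, the lowest without library 1, from 50.7% to 55.4% in T-like cells, from 30.7% to 33.8% in B-like cells and from 38.3% to 42.4% in plasma-like cells. T cells gated by antibody gave 56.0%. No antibody separated plasma cells, and the one for erythroid cells did so in library 1 alone, so that setting was not run for them. At a ratio of 2, the members higher in library 3 than in library 2 were 0 in place of 8. Shallow cells limit detection, so a low share does not show that cells were not dividing. No paired analysis was possible because each group is 1 library and no test was made. The cause of these shifts was not tested.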
